A study of Neurospora crassa with 84 samples.

Results

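The genes described here are 4 genes of meiotic recombination in the filamentous fungus Neurospora crassa: spo11 (NCU01120), mei-3 (NCU02741), msh-4 (NCU10895) and msh-5 (NCU09384). They were chosen by name for their roles in meiosis, and all 4 of them passed the filter on low counts, as did 9701 of the 10590 genes in the count table. RNA was sequenced from tissue scraped from the surface of plates of the wild type (strain background OR74A, mat A) and of a ∆ve-1 strain (mat A), which lacks a gene of the velvet family of fungal regulators. Both served as the female parent on nitrogen-poor synthetic crossing medium, in constant light or constant darkness, and the male conidia were wild type of mating type a in every cross. Samples were taken on days -2, -1 and 0, the last of these just before conidia were applied, and on days 1, 2, 4 and 6 after fertilization. The 28 combinations of strain, light condition and day had 3 libraries each, 84 in all. Each strain was a single isolate, and tissue of biological replicates was pooled for RNA, so every adjusted p below measures the spread between these libraries only.

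In most eukaryotes meiotic recombination starts when the topoisomerase-like protein Spo11 cuts both strands of the DNA. The broken ends are then repaired from the homologous chromosome, and mei-3 is a gene of N. crassa that acts in meiosis and in the repair of DNA damage in vegetative cells. The MutS homologs Msh4 and Msh5 work as a pair that, in budding yeast, stabilizes recombination intermediates and favors crossovers, with no known part in the correction of mismatches. In N. crassa meiosis takes place in the asci inside the perithecium, the fruiting body that a fertilized protoperithecium develops into, which makes up only part of the tissue on a plate.

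In assembly NC12, spo11 lies on chromosome V (2963578 to 2965419), and the other members lie on chromosome I: mei-3 at 3390116 to 3391799, msh-5 at 3507468 to 3510482 and msh-4 at 7164391 to 7168899. Each library held between 14.53 and 18.38 M counts (M for mega), and the members had low to moderate counts within them, from 37 to 2452 for spo11, 121 to 572 for mei-3, 67 to 1743 for msh-4 and 99 to 721 for msh-5. Levels are given as CPM, counts per 1000000 counts of the library, with totals scaled by TMM. The deleted gene followed the strain labels, with 2272 to 11859 counts of ve-1 (NCU01731) in wild-type libraries and 101 to 281 in ∆ve-1 libraries. Fewer nuclei in meiosis and less transcript per nucleus cannot be told apart in RNA from whole tissue.

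The transcript of spo11, the gene for the break-making protein, rose late and steeply in the wild type and less in dark-grown ∆ve-1, and showed no detectable rise in light-grown ∆ve-1. In the dark-grown wild type, spo11 stayed between 5.95 and 10.1 CPM as group means from day -2 to day 4 and reached 109.9 ± 39.5 CPM on day 6 (SD, n = 3). The libraries of that day had 105.2, 72.9 and 151.5 CPM, all of them far above the highest earlier library of that condition. In the light-grown wild type the rise came earlier, from 3.55 ± 1.33 CPM on day 0 to 8.63 ± 1.12 CPM on day 2, 32.9 ± 11.3 CPM on day 4 and 131.6 ± 8.84 CPM on day 6 (SD, n = 3 each). The day 4 libraries had 24.1, 45.6 and 29.0 CPM and the day 6 libraries 126.3, 141.8 and 126.6 CPM, so that neither day overlapped the other or the days before.

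In dark-grown ∆ve-1, spo11 had 3.40, 4.69 and 4.74 CPM on day 4 and 21.6, 19.5 and 9.15 CPM on day 6. The lowest of the day 6 libraries lay within the range of the unfertilized libraries of the same strain, which went up to 10.2 CPM on day -1. In light-grown ∆ve-1, the day 6 libraries had 5.12, 4.12 and 4.50 CPM, within the range of 2.45 to 5.58 CPM in the 9 unfertilized libraries. No group mean of light-grown ∆ve-1 was above 5.72 CPM. Ordered by group mean, light-grown wild type and dark-grown wild type on day 6 came first and overlapped each other. The light-grown wild type on day 4 was the third and overlapped neither neighbour, and dark-grown ∆ve-1 on day 6 was the fourth. Its lowest library overlapped the fifth group, dark-grown wild type on day -2 (10.1 ± 1.74 CPM, SD, n = 3), and the remaining groups followed without a gap.

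Tested with edgeR's quasi-likelihood F test, spo11 was lower in ∆ve-1 on day 6 by a log2 change of -2.71 in the dark (SE 0.27, adjusted p = 4.01e-12) and of -4.84 in light (SE 0.30, adjusted p = 5.85e-21). The mean level in ∆ve-1 was 15.2% of the wild-type level in the dark and 3.48% in light. On day 4 in light the log2 change was -2.52 (SE 0.28, adjusted p = 1.27e-11). A gene was called when its adjusted p was under 0.05 and its log2 change was beyond 1 in either direction. By that rule the day 4 difference in the dark, a log2 change of -0.96 (SE 0.28, adjusted p = 0.00484), was not called, although the 3 libraries of each strain did not overlap.

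**Figure D1:**
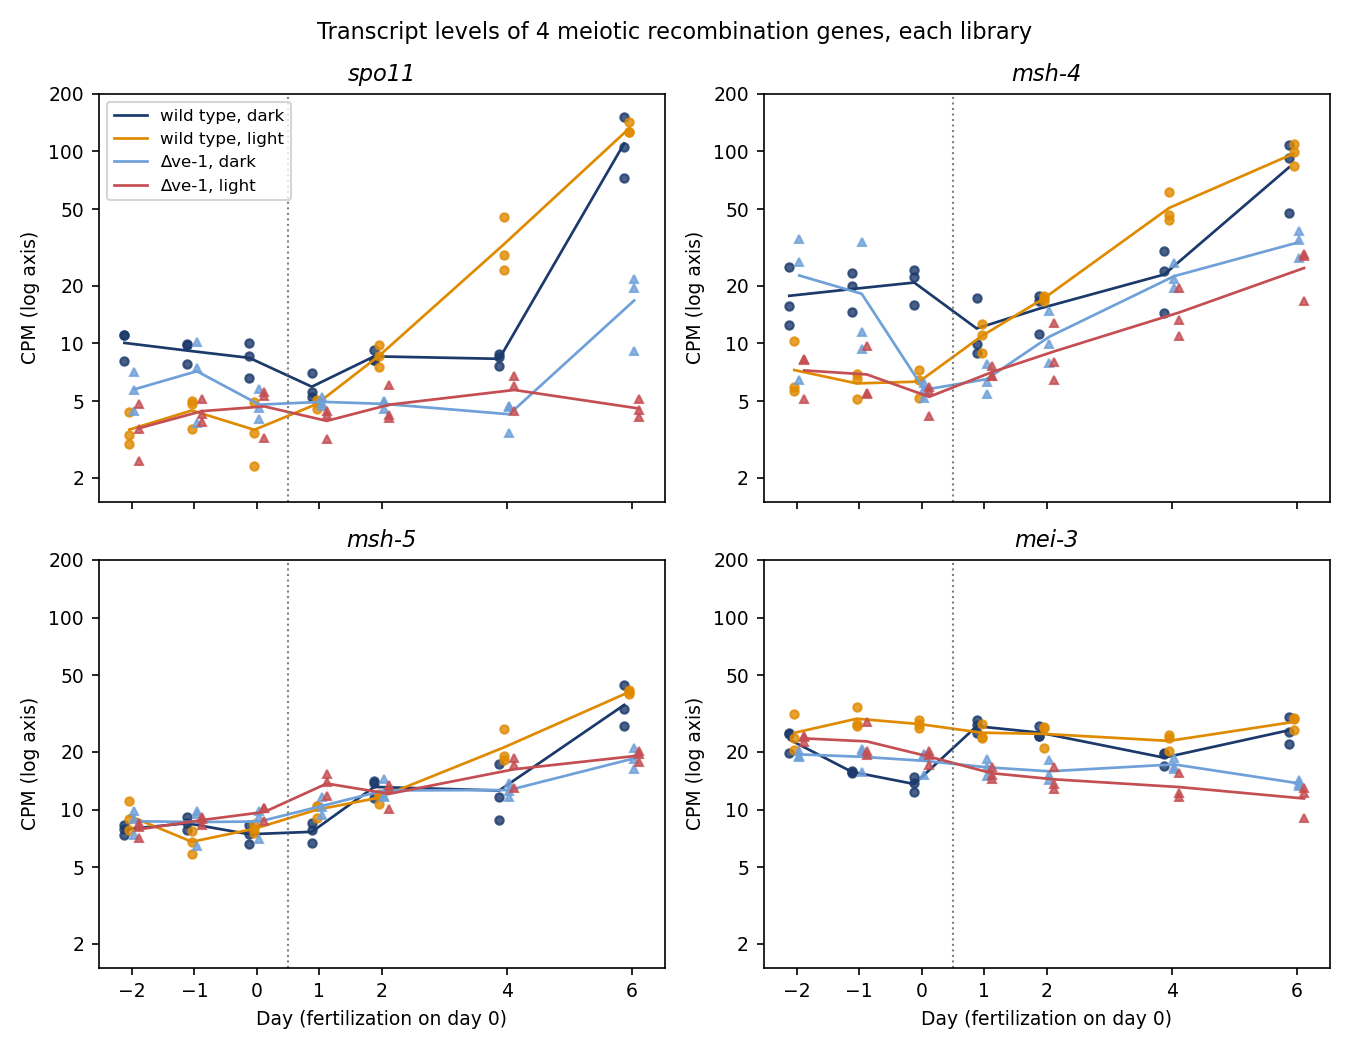
Level of each member in every library by day, in CPM on a log axis, with lines through the means of 3 libraries and the dotted line marking fertilization. On day 6 the wild-type libraries of spo11 sit between 72.9 and 151.5 CPM and those of ∆ve-1 between 4.12 and 21.6 CPM, while mei-3 stays between group means of 11.4 and 29.7 CPM throughout.

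The level of msh-4, which encodes one partner of the MutS pair that favors crossovers, followed the same course in the wild type, with a higher start in the dark. In the dark-grown wild type it had 24.0, 22.3 and 15.9 CPM on day 0 and 92.0, 47.9 and 107.7 CPM on day 6. In the light-grown wild type it went from 6.33 ± 1.05 CPM on day 0 to 17.2 ± 0.59 CPM on day 2, 50.7 ± 9.43 CPM on day 4 and 97.5 ± 12.4 CPM on day 6 (SD, n = 3 each). The levels on days 2, 4 and 6 in light did not overlap each other. On day 6 the dark and the light libraries of the wild type did overlap, with the lowest dark library below all of the light ones.

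Unlike spo11, msh-4 rose in ∆ve-1 in both light conditions. It had 34.6, 38.5 and 27.9 CPM on day 6 in the dark and 16.6, 29.1 and 28.4 CPM on day 6 in light. These libraries were all above the day 0 libraries of the same strain, which ran from 5.18 to 6.22 CPM in the dark and from 4.20 to 5.94 CPM in light, and all below those of the wild type on day 6. Before fertilization, dark-grown ∆ve-1 was the least even condition for this gene, with 6.47, 26.5 and 34.8 CPM on day -2 and 9.39, 33.6 and 11.4 CPM on day -1, so that some of these libraries lay within the range of day 6. The summed level of 4 conidial genes (eas, con-6, con-8 and con-10) in those libraries was 24450, 31890 and 66410 CPM on day -2 and 24070, 18300 and 11800 CPM on day -1, in replicate order. The part of those genes in the spread of msh-4 was not tested.

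On day 6, msh-4 was lower in ∆ve-1 by a log2 change of -1.29 in the dark (SE 0.36, adjusted p = 0.00301) and of -1.98 in light (SE 0.37, adjusted p = 4.97e-06). The dark value depended on the third replicate libraries, since without them it was -0.91 (adjusted p = 0.115). On day 4 it was lower in light by a log2 change of -1.81 (SE 0.37, adjusted p = 3.04e-05), while in the dark both strains had nearly the same mean, 22.8 ± 7.92 CPM for wild type and 22.4 ± 3.47 CPM for ∆ve-1 (SD, n = 3 each). The log2 change on day 4 in the dark was -0.03, with a 95% interval from -0.74 to 0.68.

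The partner gene msh-5 started at a similar level in all 4 conditions and was called between the strains only on day 6 in light. Its unfertilized means over 9 libraries were 7.94 ± 0.73 CPM in the dark-grown wild type, 8.01 ± 1.45 CPM in the light-grown wild type, 8.66 ± 1.34 CPM in dark-grown ∆ve-1 and 8.81 ± 0.99 CPM in light-grown ∆ve-1 (SD, n = 9 each). On day 6 the wild-type libraries had 33.3, 27.3 and 44.5 CPM in the dark and 39.9, 41.0 and 41.9 CPM in light. The libraries of ∆ve-1 had 20.9, 18.3 and 16.3 CPM in the dark and 20.1, 19.5 and 17.7 CPM in light, below every wild-type library of that day. Both strains had risen by then, the wild type by a log2 change of 2.14 in the dark and 2.36 in light, and ∆ve-1 by 1.09 and 1.12.

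The strain difference of msh-5 on day 6 was a log2 change of -0.92 in the dark (SE 0.17, adjusted p = 1.57e-05), short of the fold needed for a call, and of -1.10 in light (SE 0.17, adjusted p = 1.47e-07), which was called. Without the third replicate libraries the light value of msh-5 was -0.96 (adjusted p = 4.13e-05), and without the first the dark value was -1.07, so both lie near the fold limit. On day 1 the order was the opposite in both light conditions, with log2 changes of 0.45 in the dark (SE 0.18, adjusted p = 0.0337) and 0.45 in light (SE 0.17, adjusted p = 0.0214) and no overlap between the libraries of the strains. Neither of these reached the fold needed for a call. In the light-grown wild type on day 4, msh-5 had 18.1, 26.3 and 18.9 CPM, and light-grown ∆ve-1 had 17.1, 18.6 and 13.0 CPM, which overlapped.

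The repair gene mei-3 stayed within a narrower range of group means than the other members. Its 28 group means ran from 11.4 CPM in light-grown ∆ve-1 on day 6 to 29.7 CPM in the light-grown wild type on day -1. Ordered from the highest mean down, the first 9 groups were all wild type, and each overlapped the next. In the dark-grown wild type, mei-3 went from 23.2 ± 3.10 CPM on day -2 to 13.6 ± 1.19 CPM on day 0 and stood at 27.2 ± 2.15 CPM on day 1 (SD, n = 3 each). The libraries had 13.7, 12.4 and 14.7 CPM on day 0 and 29.2, 24.9 and 27.5 CPM on day 1, with no overlap. In light the wild type showed no such dip, with 27.98, 26.5 and 29.1 CPM on day 0.

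In light-grown ∆ve-1, mei-3 was lower on day 6 than before fertilization, short of the fold for a call. It had 17.0, 19.3 and 20.3 CPM on day 0 and 13.0, 12.2 and 9.07 CPM on day 6. The change from the unfertilized mean to day 6 was a log2 change of -0.92 in light-grown ∆ve-1 (SE 0.13, adjusted p = 2.16e-08) and 0.06 in the light-grown wild type (SE 0.12, adjusted p = 0.667). In dark-grown ∆ve-1 the mei-3 change was -0.12 on day 4 (adjusted p = 0.406) and -0.45 on day 6 (SE 0.12, adjusted p = 0.00153), and mei-3 was not called on any day in ∆ve-1. On day 6 mei-3 was lower in ∆ve-1 by a log2 change of -0.92 in the dark (SE 0.15, adjusted p = 8.13e-07), not called for its fold, and of -1.32 in light (SE 0.15, adjusted p = 1.57e-11), which was called. On day 1 the log2 changes were -0.71 in the dark (SE 0.14, adjusted p = 6.28e-05) and -0.70 in light (SE 0.15, adjusted p = 3.95e-05), with no overlap between the strains, but on day 4 in the dark the value was -0.12 (adjusted p = 0.558).

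Counted together, no member was called between the strains before fertilization, on day 1 or on day 2. Several values fell short on the fold limit alone in edgeR's test. Before fertilization in the dark, spo11 had a log2 change of -0.66 (adjusted p = 0.00022). On day 2 it had -0.82 in the dark (adjusted p = 0.0107) and -0.85 in light (adjusted p = 0.00628), with no overlap between the strains. On day 2 mei-3 stood at -0.67 in the dark and -0.79 in light, and msh-4 at -0.92 in light. For the dark, 20.7% of all genes tested were called in either direction before fertilization, 18.5% on day 1 and 21.9% on day 2, and for light the shares were 22.4%, 32.2% and 34.3%. On day 4 none was called in the dark, where 15.5% of all genes were, and 2 of 4 (spo11 and msh-4) were called lower in light, where 20.6% of all genes were called lower. On day 6 the same 2 were called lower in the dark, against 10.9% of all genes, and all 4 in light, against 23.2% of all genes. No member was called higher in ∆ve-1 on any day. With day 0 alone as the unfertilized state, msh-4 was also called lower in dark-grown ∆ve-1 before fertilization, with a log2 change of -1.85 (adjusted p = 6.64e-05). With 4 genes, such counts describe the members and are no test of them as a group.

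**Figure D2:**
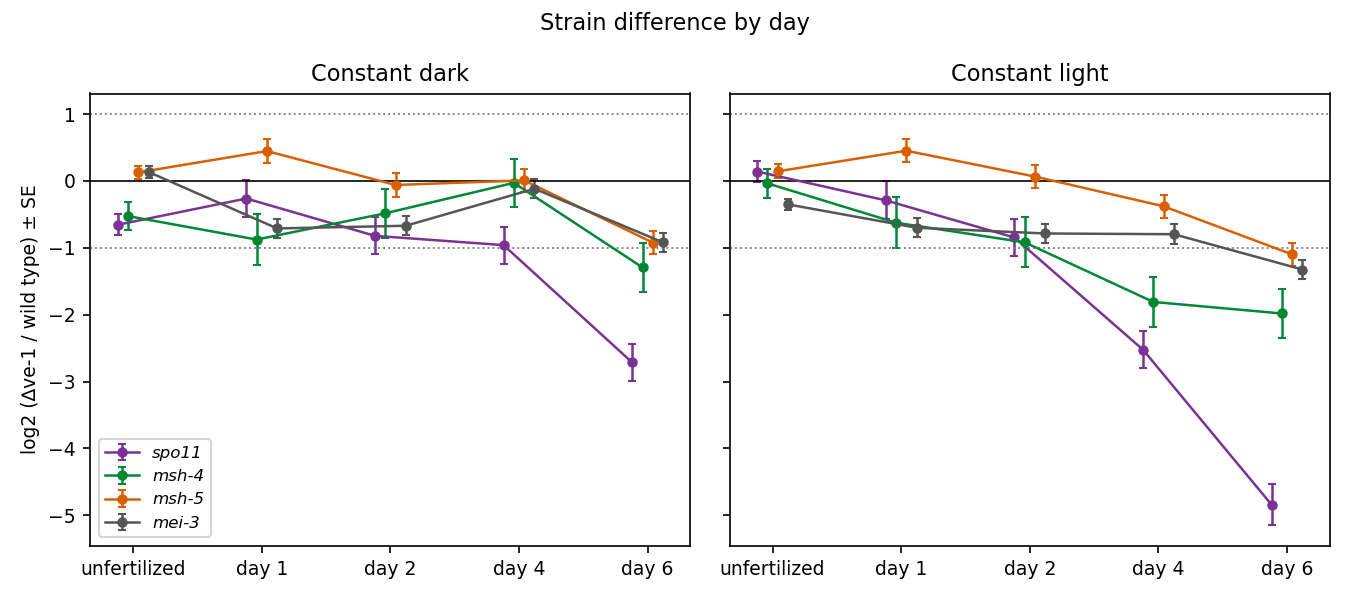
Log2 change of ∆ve-1 relative to wild type, with its SE, before fertilization (mean of 3 days) and on each later day, in the dark (left) and in light (right). The dotted lines mark the fold needed for a call, and spo11 ends at -2.71 in the dark and -4.84 in light.

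The regression over the whole time course, in which the study's quadratic terms in time were tested, gave a similar order of the members. Calls in this regression had to pass a limit of 0.001 for the adjusted p and also the fold limit for the fitted difference. In the dark 1 of 4 members, spo11, passed both and was called between the strains, against 28.9% of all genes. There mei-3 passed the limit for the adjusted p (0.000529) but not the fold limit, with a fitted log2 size of 0.85. In light 4 of 4 were called, against 49.1% of all genes. The largest fitted difference on a sampled day was a log2 size of 4.89 for spo11 in light, 2.14 for msh-4, 1.22 for mei-3 and 1.17 for msh-5. With so many genes called in light, the count of 4 says little about the members in particular.

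Before fertilization, light and dark cultures of the wild type differed in spo11 and msh-4. The 9 unfertilized libraries of spo11 ran from 6.60 to 11.1 CPM in the dark, with a median of 9.80 CPM, and from 2.29 to 4.99 CPM in light, with a median of 3.59 CPM. For msh-4 they ran from 12.5 to 24.9 CPM in the dark, with a median of 19.8 CPM, and from 5.11 to 10.2 CPM in light, with a median of 6.48 CPM. Neither gene's light libraries overlapped its dark libraries. The log2 change of light relative to dark was -1.26 for spo11 (SE 0.16, adjusted p = 9e-10) and -1.54 for msh-4 (SE 0.22, adjusted p = 1.6e-08), so 2 of 4 members were called lower in light, against 8.62% of all genes. For mei-3 the same contrast was positive, at 0.69 (SE 0.08, adjusted p = 2.27e-10), and with day 0 alone it was 1.04, which was called, and msh-5 showed a log2 change of 0.00, with a 95% interval from -0.20 to 0.20.

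After fertilization this difference in the wild type was at first not called, and on day 4 it was called in the opposite direction. No member was called between light and dark on days 1 and 2, where 8.56% and 3.67% of all genes were. On day 1 the spo11 libraries in light still lay below those in the dark, with a log2 change of -0.30 (95% interval from -0.84 to 0.24). On day 4, spo11 was higher in light by a log2 change of 1.98 (SE 0.27, adjusted p = 6.85e-08) and msh-4 by 1.15 (SE 0.36, adjusted p = 0.0185), which made 2 of 4 called higher, against 8.68% of all genes. The msh-4 call was lost without the second replicate libraries (log2 change 1.03, adjusted p = 0.257) and without the third (0.99, adjusted p = 0.126). By day 6 no member was called, against 4.15% of all genes. The log2 change of spo11 was then 0.26, with a 95% interval from -0.23 to 0.75.

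In ∆ve-1, 1 of 4 members was called lower in light before fertilization, msh-4 by a log2 change of -1.05 (SE 0.22, adjusted p = 6.21e-05), against 6.59% of all genes. This call was lost without the second or the third replicate libraries (log2 changes -0.78 and -0.80) and with day 0 alone as the unfertilized state (-0.12, adjusted p = 0.877). Its dark and light libraries overlapped, and on day 0 itself the msh-4 means were 5.74 ± 0.52 CPM (dark) and 5.27 ± 0.94 CPM (light) (SD, n = 3 each). No member was called on days 1, 2 and 4, against 14.6%, 14.8% and 19.8% of all genes. On day 6 spo11 alone was called lower in light, by a log2 change of -1.87 (SE 0.28, adjusted p = 1.08e-07), against 16.3% of all genes.

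A dependence of the strain difference on light was called for spo11 on days 4 and 6 and for msh-4 on day 4. The interaction, the strain difference in light minus that in the dark, was a log2 change of -1.56 on day 4 (SE 0.39, adjusted p = 0.0016) and -2.13 on day 6 (SE 0.38, adjusted p = 1.11e-05) for spo11. For msh-4 it was -1.78 on day 4 (SE 0.51, adjusted p = 0.00789) and -0.69 on day 6 (SE 0.50, adjusted p = 0.364). The 2 members called lower on day 4 stood against 13.7% of all genes and the 1 on day 6 against 12.1%. Without the second replicate libraries the day 4 values were -1.36 for spo11 (adjusted p = 0.0649) and -1.94 for msh-4 (adjusted p = 0.0561), and without the third the msh-4 value was -1.39 (adjusted p = 0.122). No member was called before fertilization, on day 1 or on day 2, against 11.2%, 13.5% and 11.5% of all genes. Before fertilization, spo11 at 0.80 (SE 0.23, adjusted p = 0.00367) and mei-3 at -0.48 (SE 0.12, adjusted p = 0.000749) fell short on the fold limit alone. With day 0 alone as the unfertilized state, 2 of 4 were called with the sign opposite to that on day 4. These were spo11 at 1.21 (adjusted p = 0.0213) and msh-4 at 1.59 (adjusted p = 0.0276). The share over all genes with day 0 alone was not computed, so this count has no background beside it. For mei-3 the interaction on day 4 was -0.68 (SE 0.21, adjusted p = 0.0118), short of a call on the fold limit alone. On day 6 the interaction was -0.18 for msh-5 (95% interval from -0.65 to 0.30) and -0.41 for mei-3 (95% interval from -0.81 to 0.00).

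Changes from the unfertilized mean set the timing apart by strain and light. In the dark-grown wild type no member was called on days 1, 2 and 4, against 14.3%, 24.1% and 25.7% of all genes, and on day 6 spo11 (log2 change 3.58, SE 0.19), msh-4 (2.11, SE 0.27) and msh-5 (2.14, SE 0.13) were called higher, against 20.9% of all genes. In the light-grown wild type none was called on day 1, against 21.2% of all genes. On day 2 spo11 (log2 change 1.17, SE 0.21) and msh-4 (1.38, SE 0.29) were called higher, against 16.9%. They were joined by msh-5 on day 4 (log2 change 1.41, SE 0.13), against 21.9%, and the same 3 were called on day 6, against 24.8%, with log2 changes of 5.10 for spo11, 3.89 for msh-4 and 2.36 for msh-5. The adjusted p of every call in the wild type on day 6 was 4.98e-10 or lower, and mei-3 was not called on any day.

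In dark-grown ∆ve-1, msh-4 was called lower on day 1 (log2 change -1.03, SE 0.32, adjusted p = 0.00982), against 3.08% of all genes, although its libraries overlapped the unfertilized ones. With day 0 alone as the unfertilized state the msh-4 value was 0.18 (adjusted p = 0.789), so the call depends on days -2 and -1. None was called on days 2 and 4, against 15.9% and 20.1%, whereas against day 0 alone msh-4 was called higher on day 4 (1.963, adjusted p = 3.74e-05). On day 6 spo11 (log2 change 1.52, SE 0.20), msh-4 (1.34, SE 0.28) and msh-5 (1.09, SE 0.13) were called higher, against 16.2% of all genes. In light-grown ∆ve-1 none was called on days 1 and 2, against 5.28% and 4.77%. On day 4 msh-4 was called higher (log2 change 1.17, SE 0.29), against 6.82% of all genes, a call lost without the second replicate libraries (0.93, adjusted p = 0.112). On day 6 the members called higher were msh-4 (log2 change 1.94, SE 0.28) and msh-5 (1.12, SE 0.14), against 11.4%, of which msh-5 fell short of the fold against day 0 alone (0.975). Here spo11 had a log2 change of 0.11 on day 6 (SE 0.23, adjusted p = 0.707), with a 95% interval from -0.34 to 0.57, which leaves out every rise of the size seen in the other 3 conditions.

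The difference in the rise to day 6 between the strains was itself tested. In the dark it was a log2 change of -2.06 for spo11 (SE 0.30, adjusted p = 1.7e-07), -1.05 for mei-3 (SE 0.17, adjusted p = 9.37e-07) and -1.05 for msh-5 (SE 0.20, adjusted p = 2.42e-05), so 3 of 4 members were called lower, against 10.9% of all genes. For msh-4 in the dark it was -0.77 (SE 0.41, adjusted p = 0.148), and with day 0 alone as the unfertilized state the sign turned, to 0.56 (adjusted p = 0.467). Without the third replicate libraries the values of mei-3 and msh-5 in the dark were -0.90 and -0.78, short of a call. In light 3 of 4 were called lower as well, against 16.7% of all genes, namely spo11 at -4.98 (SE 0.34, adjusted p = 2.27e-19), msh-4 at -1.95 (SE 0.43, adjusted p = 0.000118) and msh-5 at -1.24 (SE 0.20, adjusted p = 4.98e-07). The value of mei-3 in light, -0.97 (SE 0.17, adjusted p = 2.31e-06), fell just short of the fold for a call.

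The regression on time within each condition called spo11, msh-4 and msh-5 in the wild type, both in the dark, against 31% of all genes, and in light, against 38.6%. In dark-grown ∆ve-1 it called spo11 and msh-5, against 17.6% of all genes, and both of these calls were lost whichever replicate was left out. In light-grown ∆ve-1 it called msh-4, msh-5 and, with a downward course, mei-3, against 17.9% of all genes, of which the mei-3 call was lost without the second replicate libraries. The 2 conditions of ∆ve-1 thus differed in whether spo11 was called, with adjusted p = 0.000154 in the dark and adjusted p = 0.225 in light, although this regression did not test that difference.

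Within libraries, the ratio of spo11 to the other members also separated the strains on day 6, and such a ratio does not depend on how libraries are scaled. The ratio of spo11 counts to msh-4 counts was 1.36 ± 0.19 in the dark-grown wild type and 1.36 ± 0.12 in light, against 0.486 ± 0.149 and 0.203 ± 0.0924 in ∆ve-1 (SD, n = 3 each). The ratio of spo11 to msh-5 was 3.08 ± 0.37 in the wild type and 0.886 ± 0.281 in dark-grown ∆ve-1, and 3.22 ± 0.22 and 0.240 ± 0.0250 in light (SD, n = 3 each). By contrast, msh-5 and mei-3 kept ratios that overlapped between the strains, at 1.34 ± 0.11 and 1.35 ± 0.16 in the dark (SD, n = 3 each). Of the 12 ratio comparisons, all 6 that involve spo11 showed no overlap, and neither did that of msh-4 to msh-5 in light, which was 2.38 ± 0.27 for wild-type and 1.31 ± 0.42 for ∆ve-1 libraries (SD, n = 3 each). The two-sided exact permutation p of these 7 was 0.1, the smallest that 3 against 3 libraries can give, so none can pass a threshold of 0.05. The 6 with spo11 reuse the same spo11 counts and are not separate observations, and no share over other gene pairs was computed.

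Levels of different genes were compared per kb of gene span, which counts introns. On this scale spo11 was the most abundant member in the wild type on day 6, with 59.7 CPM per kb in the dark and 71.4 in light, against 18.3 and 21.6 for msh-4, 15.4 and 17.0 for mei-3 and 11.6 and 13.6 for msh-5. In light-grown ∆ve-1 on day 6 it was the least abundant, with 2.49 CPM per kb, below msh-4 (5.47), msh-5 (6.34) and mei-3 (6.78). In dark-grown ∆ve-1 the levels per kb were 9.08 for spo11, 8.13 for mei-3, 7.46 for msh-4 and 6.13 for msh-5.

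Among other genes of recombination and mismatch repair, 10 could be listed by symbol. The list held the MutS homologs msh1, msh3 and msh6, the MutL homologs mlh-1, mlh-2 and pms-1, the Mre11 and Rad50 homologs mus-23 and uvs-6, which process DNA ends, and the Rad52 and Rad54 homologs mus-11 and mus-25, which act in recombinational repair. In the dark 1 of 10 was called lower in ∆ve-1 on day 6, against 10.9% of all genes, and 0 higher, with a list median log2 change of -0.10 against -0.02 over all genes. In light 3 of 10 were called lower, against 23.2% of all genes, and 0 higher, with a list median of 0.18 against -0.04 over all genes. Both counts are near the share over all genes. The mismatch repair genes msh3 and msh6 were not among those called.

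The pathway gene with the largest difference was mlh-2, a MutL homolog. It had 44.1, 34.5 and 68.4 CPM in the dark-grown wild type and 58.6, 73.7 and 55.7 CPM in light on day 6, against 6.70, 8.59 and 2.79 CPM and 1.63, 0.544 and 1.35 CPM in ∆ve-1. The log2 change was -3.02 in the dark (SE 0.72, adjusted p = 0.000592) and -5.72 in light (SE 0.85, adjusted p = 4.21e-08). On day 4 of the wild type it had 0.493 ± 0.139 CPM among dark-grown and 14.6 ± 7.97 CPM among light-grown cultures (SD, n = 3 each). In most unfertilized libraries mlh-2 had few counts. In dark-grown ∆ve-1, however, 1 library on day 0 had 7.24 CPM and 1 on day -1 had 4.58 CPM. Both lay above the lowest day 6 library of that condition (2.79 CPM). The other called genes were mus-25 (log2 change -1.28, SE 0.21, adjusted p = 2.42e-07) and mus-11 (log2 change -1.03, SE 0.18, adjusted p = 1.11e-06), both in light. The mus-11 call was lost without the second or the third replicate libraries (log2 changes -0.90 and -0.92) and without the filter on low counts (-0.95). In the dark their log2 changes were -0.78 and -0.66, short of a call.

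**Figure D3:**
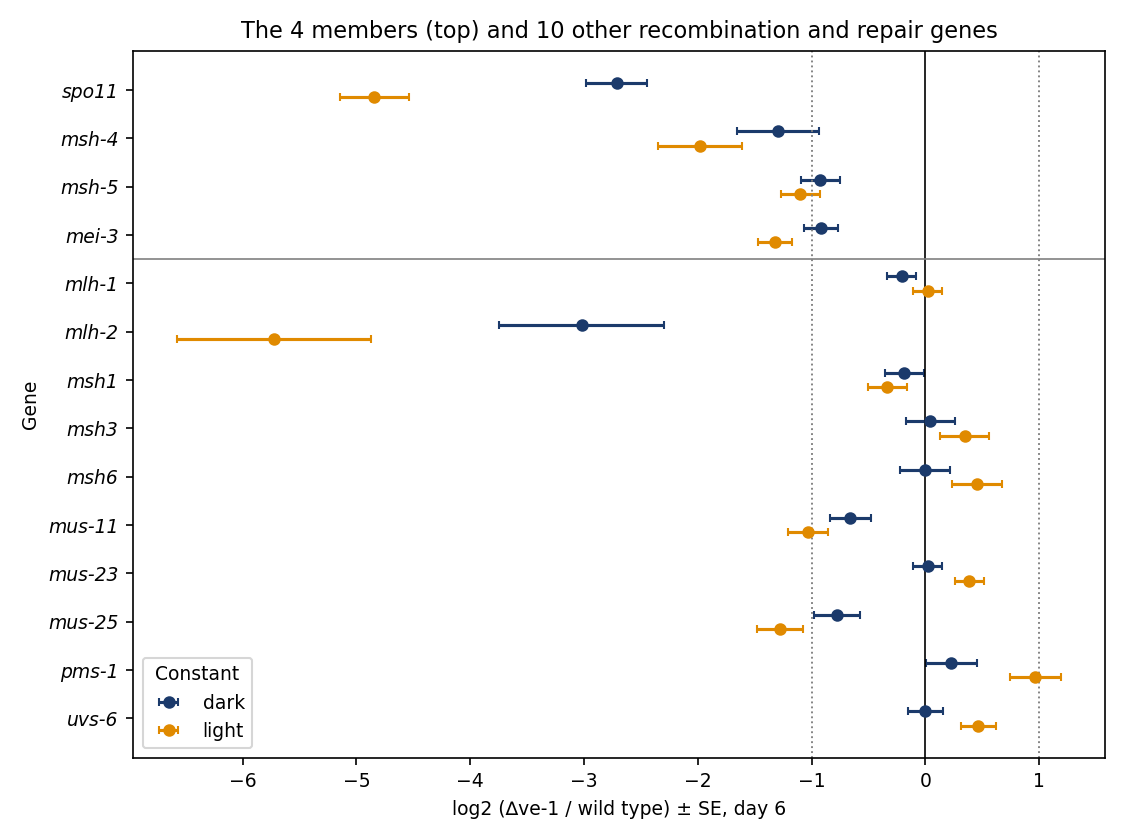
Log2 change of ∆ve-1 relative to wild type on day 6, with its SE, for the 4 members above the line and 10 other recombination and repair genes below it, in the dark and in light. All 4 members and mlh-2 lie to the left of zero in both conditions, with mlh-2 at -3.02 and -5.72, and so do others of the list such as mus-11 and mus-25.

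The summed levels of perithecial and of conidial markers differed between the strains, but not every gene of the lists was called. The summed level of 4 genes listed for perithecia and sexual tissue (per-1, asd-1, fsd-1 and matA-1) was 7144 ± 1386 CPM in the dark-grown wild type on day 6 and 4634 ± 373.2 CPM in light, against 3471 ± 351.7 CPM and 790.9 ± 36.1 CPM in ∆ve-1 (SD, n = 3 each). All 4 were detected in every group. In 3 of these 4 groups the largest parts of the sum were per-1, a gene of perithecial wall pigment, and fsd-1, which encodes a transcription factor of female sexual development. In light-grown ∆ve-1 the largest parts were fsd-1 (397.5 CPM) and the mating type gene matA-1 (269.5 CPM), with per-1 at 74.9 CPM. In edgeR's test on day 6, per-1 (log2 change -1.47, adjusted p = 0.0739) and fsd-1 (-0.54, adjusted p = 0.0296) were not called in the dark. In light both were called lower in ∆ve-1, at -5.26 for per-1 and -2.08 for fsd-1. Of the 4 genes, 2 were called higher in ∆ve-1 on day 6 in both light conditions. One was matA-1, with log2 changes of 2.64 in the dark (adjusted p = 3.96e-05) and 1.94 in light (adjusted p = 0.000562). The other was the ascus development gene asd-1, at 11.5 CPM (wild type) against 29.3 CPM (∆ve-1) among dark-grown cultures and 23.5 against 48.9 CPM among light-grown ones. The conidial sum on day 6 was 2855 CPM in the dark-grown wild type, 13390 CPM in light, 14980 CPM in dark-grown ∆ve-1 and 80750 CPM in light. Of the conidial genes, con-8 and con-10 were called higher in ∆ve-1 on day 6 in the dark, and eas and con-6 were not. In light all 4 were called higher. The part of either marker list in the strain differences of the members was not tested.

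The members did not all follow the perithecial sum. In the dark-grown wild type the sum stood at 2573 CPM on day 1, 6446 CPM on day 2 and 8775 CPM on day 4, days on which spo11 was at 5.95 to 8.56 CPM. In light-grown ∆ve-1 the sum stayed between 780.5 and 847.4 CPM on all days after fertilization, with per-1 at 247.1 CPM on day 1 and 74.9 CPM on day 6, while msh-4 and msh-5 rose. Set against the sum on day 6, spo11 came to 16.0 ± 7.77 CPM per 1000 CPM of markers in the dark-grown wild type and 28.5 ± 2.46 in light, against 4.82 ± 1.97 and 5.78 ± 0.37 in ∆ve-1 (SD, n = 3 each), with no overlap between the strains. For msh-5 the same quantity overlapped between the strains in the dark, at 5.09 ± 1.95 and 5.37 ± 0.96, and in light was higher in ∆ve-1, at 24.2 ± 1.62 against 8.88 ± 0.96 in the wild type (SD, n = 3 each). For msh-4 it overlapped in both light conditions, with means of 11.8 (wild type) and 9.69 (∆ve-1) in the dark and 21.2 and 31.5 in light. For mei-3 it overlapped in the dark, with means of 3.74 and 3.96, and in light was higher in ∆ve-1, at 14.4 against 6.21. These quantities depend on the markers summed, since asd-1 and matA-1 were called higher in ∆ve-1 on day 6. For per-1 alone the log2 change on day 6 was -5.26 in light, beside -4.84 for spo11. In the dark it was -1.47, not called, beside -2.71 for spo11. Levels set against single markers were not computed.

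**Figure D4:**
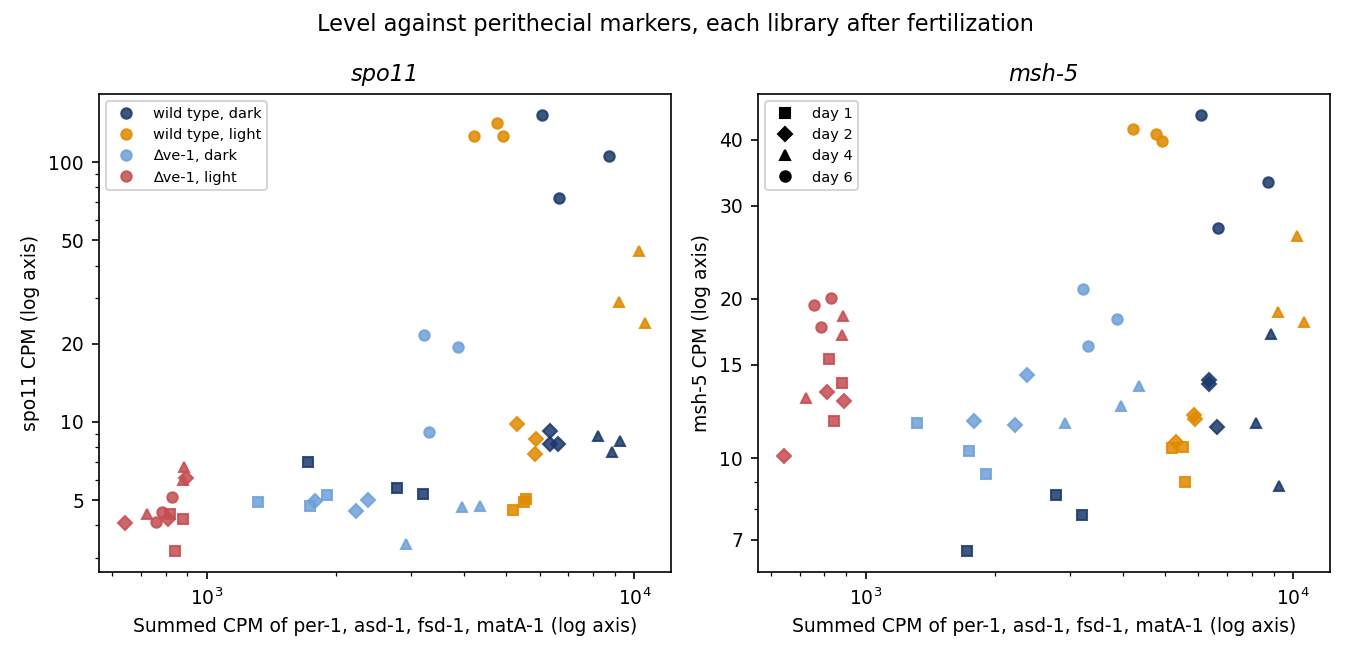
Level of spo11 (left) and msh-5 (right) against the summed level of per-1, asd-1, fsd-1 and matA-1 in each library after fertilization, both in CPM on log axes, with color for strain and light and symbol for day. The dark-grown wild type has mean marker sums of 6446 and 8775 CPM on days 2 and 4, with spo11 under 10 CPM in each of those libraries.

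Replicate libraries of the dark-grown wild type on day 6 were high or low together for all 4 members, with the second library lowest and the third highest in each. The same library was highest for all 4 members in 3 of 28 groups and lowest for all 4 in 3 of 28. In dark-grown ∆ve-1 on day 6 the third library was the lowest for each member, most clearly for spo11.

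Across the 28 group means of log2(CPM + 1), spo11 and msh-4 had a Pearson correlation of 0.87, spo11 and msh-5 of 0.80, and msh-4 and msh-5 of 0.77. The correlations of mei-3 with the others lay between -0.05 and 0.26. Rank correlations were lower, at 0.71 for spo11 with msh-4 and 0.30 for spo11 with msh-5. Groups of the same strain or light condition are not independent points, so these values are descriptions only.

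The tested genes most like each member by the same measure were NCU16745 (0.97), NCU06470 (0.97) and NCU09742 (0.97) for spo11, and NCU07152 (0.97), NCU01365 (0.96) and NCU16490 (0.95) for msh-5. For msh-4 they were ecd-1 (0.91), NCU08790 (0.89) and NCU17225 (0.89), and for mei-3 they were NCU01421 (0.86), NCU06568 (0.85) and cdc7 (0.84). All rest on 28 groups. By rank correlation NCU01421 was still the first for mei-3, whereas NCU16745, the first for spo11, came 16th, so the neighbours of spo11 depend on the measure.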

How the data were processed

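The authors pooled tissue of biological replicates, made strand-specific poly-A libraries, trimmed paired reads (fastp), aligned these by STAR against OR74A assembly NC12, and used featureCounts for gene-level totals. The deposited values are raw counts per gene, with no scaling or filter. Positions and symbols come from the RefSeq annotation of NC12, which matched all 10590 genes, and msh-5 takes its name from the study. Samples were grouped by strain, light and day from their labels.

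Here counts were fitted with edgeR 4.0.16 (limma 3.58.1, R 4.3.3) as 28 group means after TMM scaling and filterByExpr, and contrasts were tested with the quasi-likelihood F test, adjusted over 9701 genes by the method of Benjamini and Hochberg. A call needed an adjusted p under 0.05 and a log2 change beyond 1, the limits of the study's pairwise tests. The study used maSigPro for time courses, and here quadratic terms in day were tested in edgeR with 0.001 as the adjusted p limit and the same limit on the fitted change. The unfertilized state is the mean of days -2, -1 and 0. The SE is the absolute log2 change divided by the square root of F. The 95% intervals and all p-values cover the spread between libraries of pooled tissue. Between any pair of replicates, chi-square per degree of freedom was at least 11.95, so no replicates were merged.

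Scripts were tested on simulated counts. Alternatives were RLE size factors, DESeq2 1.42.0, no filter, each replicate left out, a replicate block, no fold limit and a fit on the compared groups only. Genes of the recombination list were found by symbol or synonym only, since the annotation used held no descriptions, and 1 item is not reported here. The members and the gene lists were chosen with earlier results of these data known. Genes named beside the members are those called in the recombination list on day 6 and the 3 with the highest correlation to each member.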

Additional observations from a re-analysis of the deposited data

Results flagged for a closer look

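Effects that differed between groups by a test of the difference itself are listed here as values, all from edgeR's quasi-likelihood F test on the interaction. The strain difference in spo11 was larger in light than in the dark, by a log2 change of -1.56 on day 4 and -2.13 on day 6, and that in msh-4 by -1.78 on day 4. The change from the unfertilized state to day 6 was smaller or more negative in ∆ve-1 for the genes given here. Among dark-grown cultures the difference between the strains was -2.06 for spo11, -1.05 for mei-3 and -1.05 for msh-5. In light it was -4.98 for spo11, -1.95 for msh-4 and -1.24 for msh-5. These are the same values as in the comparisons above, and groups of 3 libraries were not screened for single outlying libraries. As given there, both day 4 values lost their call without the second replicate libraries. Without the third, so did the day 4 value of msh-4 and the dark values of mei-3 and msh-5.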

How the results depend on the processing

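Of 172 pairwise values of the 4 members, 41 were called, and 87 with an adjusted p alone, which raised the counts in all 10 kinds of pairwise comparison, by over 1.5 times in 7 of them and in the regression between strains in the dark (strain effect in the dark 11, in light 13, light effect in ∆ve-1 5, rise to later days 9 in the dark-grown wild type, 8 and 10 in ∆ve-1, strain by light interaction 6, regression 2). The same setting moved the calls of the recombination list on day 6 to 3 in the dark and 6 in light. The alternatives for that list were chosen after seeing the data. The shares of all genes called under the alternative settings were not computed, so the counts in this paragraph have no background beside them. RLE size factors gave 42 calls and DESeq2's Wald test 42, 41 of them shared with the main ones in each case, the added one being mei-3 in light (strain difference in the rise, -1.02). Without a filter the count was 40, with the light effect in ∆ve-1 at 1 instead of 2, and the fit on the compared groups gave 40. Leaving out 1 replicate gave 36 to 45 calls, with 2 to 4 for the strain effect in the dark, 1 to 2 for the light effect in ∆ve-1 and 1 to 3 for the strain by light interaction. With day 0 alone as the unfertilized state, chosen after seeing the data, there were 43 calls, with 1 for the light effect in ∆ve-1 and 5 for the strain by light interaction, and the day 1 change of msh-4 in dark-grown ∆ve-1 reversed to 0.18. The causes were not tested.

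With the replicate block the fit gave 40 calls, all shared with the main ones, the lost one being the day 1 change of msh-4 in dark-grown ∆ve-1 (-0.997, adjusted p = 0.0114, from edgeR). Whether the replicate numbers pair the libraries was not tested. The correlations of same-numbered deviations ran from -0.32 to 0.42, with a median of 0.11, and all 3 were above 0.1 in 5 of 28 pairs of groups. No correlations of differently numbered libraries were set beside them, so these values cannot decide it. Levels per kb were planned on exon length, which was not run, as gene span was the length used here. The depth limits spo11 most, with a lowest count of 37 in a library. Tissue was pooled before extraction, so spread between independent cultures may be larger than the spread used here.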
